A study of Mus musculus with 12 samples.

Results

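The 10 genes described here encode enzymes of glycolysis: the hexokinases Hk1 and Hk2, the glucose-6-phosphate isomerase Gpi1, the phosphofructokinase Pfkp, the aldolase Aldoa, the triosephosphate isomerase Tpi1, the phosphoglycerate kinase Pgk1, the enolase Eno1, the pyruvate kinase Pkm and the lactate dehydrogenase Ldha. They were chosen by name, and 10 of 10 were found among the 13886 genes of the count matrix. The cells came from the draining lymph nodes of 3 mice on day 16 of the primary response to NP-KLH in Sigma Adjuvant System, 5 days after tamoxifen by gavage. Live cells without surface IgD that carried the reporter eYFP were sorted, with plasma cells (PC) and the other B cells captured apart by a 10x Genomics 5' assay, and a barcoded antibody to CD45 marked the mouse of each cell. All cells share the immunisation, the tamoxifen and the eYFP reporter. The labels do not give the Cre driver, the strain, sex or age of the mice, and there is no unimmunised or untreated group. Each of the 6000 cells carries a state set by the authors: dark zone (DZ, 3040 cells), light zone (LZ, 2213), cells passing from light to dark zone (LZtoDZ, 165), pre-memory (preMem, 396), pre-plasma cell (prePC, 49) or PC (137).

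Glycolysis splits glucose into pyruvate and yields ATP without oxygen. Hexokinase, phosphofructokinase and pyruvate kinase catalyse its nearly irreversible steps, and lactate dehydrogenase turns pyruvate into lactate, which returns the cofactor NAD+ that the pathway needs. Germinal center (GC) B cells divide fast, the dark zone being the site of division and somatic hypermutation and the light zone the site of antigen capture and T cell help. Light zone cells that receive help switch on Myc, grow and return to the dark zone, and Myc and the hypoxia factor HIF-1 are known to bind the letters CACGTG and ACGTG, respectively, near many glycolytic genes.

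In GRCm38.p6 the RefSeq annotation places Hk1 at chr10:62268855-62379920, Hk2 at chr6:82725025-82774454, Gpi1 at chr7:34201327-34230336, Pfkp at chr13:6579874-6649060, Aldoa at chr7:126795234-126800994 and Tpi1 at chr6:124810586-124814158. Pgk1 lies at chrX:106187100-106203699, Eno1 at chr4:150236708-150248879, Pkm at chr9:59656576-59679372 and Ldha at chr7:46842274-46855627, and all are protein-coding genes. The 250 bases before each annotated start were searched on both strands for CACGTG, for the shorter ACGTG that it contains, and for GGGCGG, the core of the box bound by Sp1. Of 17 windows of the 10 genes, some of which overlap, 6 held ACGTG, 1 held CACGTG and 11 held GGGCGG. Over all 32851 mouse windows of this length the shares were 16.6%, 6.02% and 32.7%. Matching windows belonged to 5 genes for ACGTG (Hk2, Aldoa, Pgk1, Pkm and Ldha), to Ldha alone for CACGTG, and to 9 genes for GGGCGG, all but Hk1. A match describes letters and is neither a binding site nor a cause of the levels below. Of the members higher in LZtoDZ than in LZ cells, Tpi1, Eno1 and Pfkp had no ACGTG in any window and are not shown. Ldha, Pgk1, Hk2, Aldoa and Pkm, also higher there, had it. The windows of 3 genes that rose in LZtoDZ cells and of Gpi1, which did not pass the test there, are shown 5' to 3' on the gene's strand, with ACGTG or its complement CACGT in capitals (CACGTG where both overlap).
Ldha, chr7:46845554-46845803, plus strand: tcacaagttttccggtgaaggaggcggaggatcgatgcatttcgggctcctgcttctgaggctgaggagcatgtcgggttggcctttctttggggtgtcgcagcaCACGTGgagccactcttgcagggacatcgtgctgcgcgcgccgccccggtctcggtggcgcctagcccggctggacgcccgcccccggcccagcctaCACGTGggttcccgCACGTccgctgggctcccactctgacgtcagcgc
Pgk1, chrX:106186850-106187099, plus strand: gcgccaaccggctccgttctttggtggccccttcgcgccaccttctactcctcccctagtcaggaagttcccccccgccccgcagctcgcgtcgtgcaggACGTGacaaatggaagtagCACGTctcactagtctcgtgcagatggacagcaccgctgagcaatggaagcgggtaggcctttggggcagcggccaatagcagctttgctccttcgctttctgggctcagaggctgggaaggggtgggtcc
Hk2, chr6:82774455-82774704, minus strand: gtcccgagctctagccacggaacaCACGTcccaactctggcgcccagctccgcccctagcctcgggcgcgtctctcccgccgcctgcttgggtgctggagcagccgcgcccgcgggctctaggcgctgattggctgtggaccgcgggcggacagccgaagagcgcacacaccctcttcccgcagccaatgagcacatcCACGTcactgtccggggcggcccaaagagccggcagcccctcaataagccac
Gpi1, chr7:34230337-34230586, minus strand: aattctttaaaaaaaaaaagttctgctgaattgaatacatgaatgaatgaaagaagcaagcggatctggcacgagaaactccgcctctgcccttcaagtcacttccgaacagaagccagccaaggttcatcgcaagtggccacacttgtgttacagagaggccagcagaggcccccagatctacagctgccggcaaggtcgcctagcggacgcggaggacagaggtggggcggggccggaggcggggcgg
The Ldha window centred its CACGTG letters 142 and 45 bases before the start, and a second annotated Ldha start had none of the 3 motifs.

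Values are unique molecular identifiers (UMIs), 1 per captured transcript 5' end, summed per mouse and state and given as CPM (counts relative to the TMM-scaled total), so levels are compared between cells for 1 gene and not between genes. The mice gave 1491, 2079 and 2430 cells, and median depth ran from 4119 UMIs per cell in preMem and 6258 in LZ to 19103 in LZtoDZ cells and 24018 in PC. Barcodes fall into 2 series of 5878 and 122 cells with 0 barcodes shared, and the second series held 117 of the 137 PC but 3 LZtoDZ, 2 prePC and 0 DZ, LZ or preMem cells, so capture and cell state cannot be told apart for PC. The genes of the scores behind the states are not named in the labels or files used here, and members may be among them. Against the fixed marker lists, 6 of 6 LZtoDZ markers were higher in LZtoDZ than in LZ cells, 7 of 7 memory markers were higher in preMem than in LZ cells, and 7 of 7 PC markers were higher in PC than in GC cells. Of 7 LZ markers, 7 were lower in DZ cells, and 4 of 7 DZ markers were higher there. Of 8 T cell markers in the matrix, 4 had UMIs in prePC, with a sum of 0 to 48.0 CPM per mouse, against at most 5.20 CPM in the GC states; in PC only Cd28 did (66.4 to 134 CPM), and Cd3d, Cd3e, Cd3g and Trac were at 0. Of 9 myeloid markers, 7 had UMIs in prePC (1045 to 2180 CPM) and 5 in PC (325 to 1197 CPM). Their sum was 417 to 741 CPM in LZ, 426 to 721 in DZ and 121 to 128 in LZtoDZ cells. Among them, Apoe had UMIs in 60.3% of DZ and 60.5% of LZ cells, and Cst3 in 83.5% and 69.5%. The closing section gives fits without cells with RNA of other types, and the source of these transcripts was not tested.

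The summed level of the 10 genes separated the LZtoDZ cells from every other state. It was 5372, 5596 and 5206 CPM in the LZtoDZ cells of mice 1, 2 and 3. In LZ cells it was 2926, 3020 and 3067 CPM, and in DZ cells 2833, 2985 and 2797 CPM. PC were at 2821, 2675 and 2821 CPM and preMem cells at 2094, 2160 and 1889 CPM. The LZtoDZ mice lay above all others without overlap. The place of PC depends on the scaling, since TMM factors were 0.566 to 0.706 in PC and 1.01 to 1.17 in the other states. Relative to library totals, PC were at 1596, 1555 and 1992 CPM, below preMem cells (2166, 2263 and 1996), LZ cells (3340.3, 3487 and 3550.3) and DZ cells (3291, 3491 and 3269), with PC and preMem nearly equal in mouse 3. LZtoDZ cells were again the highest, at 6060.5, 6235 and 5789 CPM. The prePC values of 3111, 3592 and 1985 CPM spread over all of these and rest on 17, 22 and 10 cells.

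**Figure D1:**
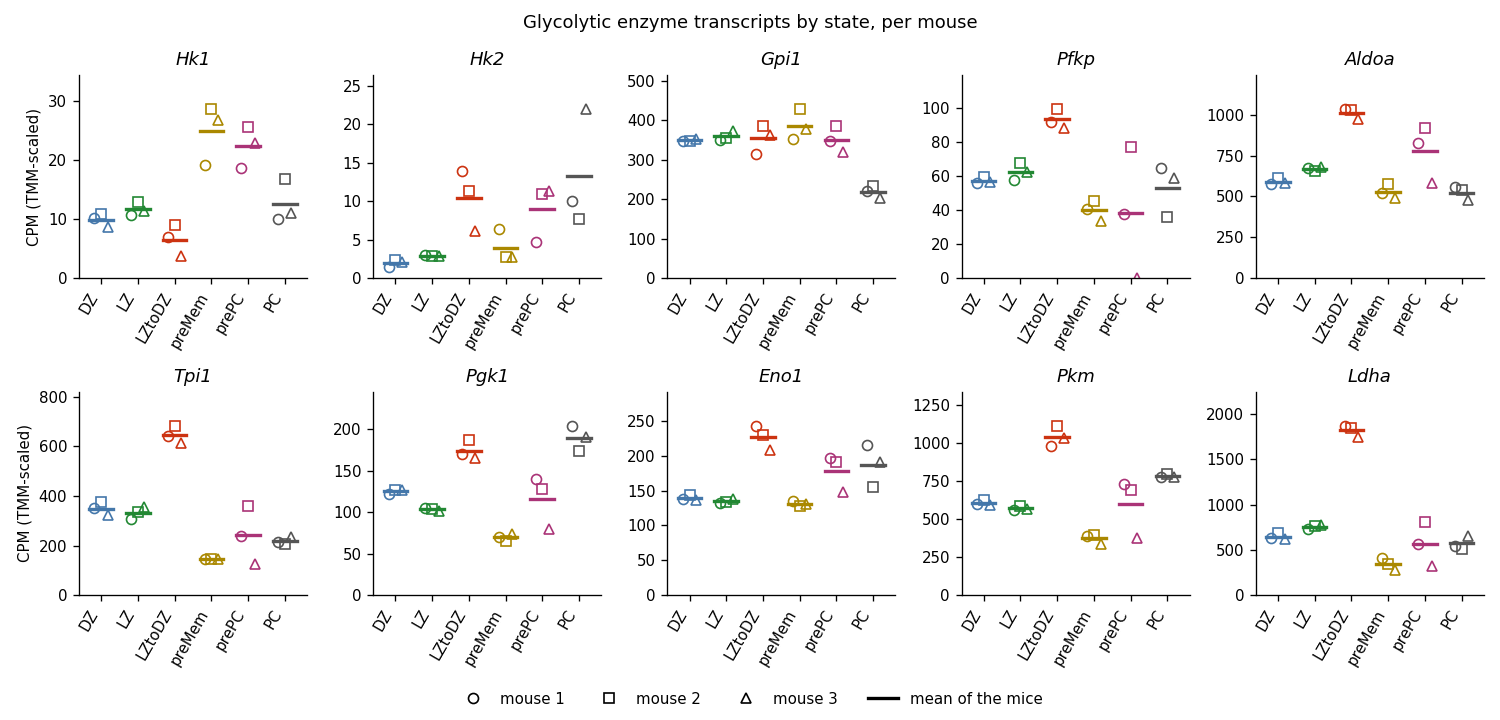
Level of each enzyme transcript in CPM with TMM scaling (y axis, from 0) in the 6 states (x axis), with 1 point per mouse and a line at the mean of 3 mice. Ldha, Tpi1, Aldoa, Pkm and Pfkp are highest in LZtoDZ cells, Gpi1 is lowest in PC, and Hk1 has its highest means in preMem (24.9 CPM) and prePC (22.4 CPM).

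The order of the states differed between the enzymes. LZtoDZ cells ranked first for Pfkp, Aldoa, Tpi1, Eno1, Pkm and Ldha, and they passed the test against the next state for Pfkp, Aldoa, Tpi1, Pkm and Ldha (edgeR adjusted p from 0.000209 for Ldha to 0.0465 for Pkm). For Eno1 the next state was PC, and the pair did not differ beyond their spread (adjusted p = 0.0630 by edgeR). PC ranked first for Hk2 and Pgk1, with LZtoDZ second and no difference past the threshold (edgeR adjusted p = 0.512 and 0.370). Relative to library totals PC no longer ranked first: Hk2 was at 11.7 CPM in LZtoDZ, 9.36 in prePC and 8.59 in PC (means of 3 mice), and Pgk1 at 194 in LZtoDZ, 146 in DZ and 117 in PC. Hk1 and Gpi1 were highest in preMem cells. In the Hk1 order no neighbouring states passed the test, and in the Gpi1 order only the last step did, from 349 CPM in DZ to 219 CPM in PC (edgeR adjusted p = 0.000204). LZ cells were above preMem cells, the next state, for Pgk1 and for Pkm (edgeR adjusted p = 0.00200 and 0.00914). Tpi1 was lower in preMem cells than in PC (edgeR adjusted p = 0.0339), and Pgk1 was lower in DZ than in LZtoDZ cells (adjusted p = 0.00117 by edgeR).

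The comparison of LZtoDZ with LZ cells asks how the transcripts stand in cells annotated as leaving the light zone. Transcripts of 8 of the 10 enzymes were higher in LZtoDZ cells, 1 was lower and Gpi1 did not pass the test. Of all 8473 genes tested, 22.5% were higher and 24.3% lower (46.8% in either direction). The members' median log2 fold change was 0.75, beside -0.08 over all genes. Every step from phosphofructokinase to lactate dehydrogenase that the members cover rose, with Ldha and Hk2 showing the largest changes.

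At the entry of the pathway the hexokinases moved in opposite directions. Hk2, the inducible hexokinase that docks on mitochondria, stood at 13.9, 11.3 and 6.17 CPM in LZtoDZ cells of the 3 mice and at 2.99, 2.90 and 2.89 CPM in LZ cells. The groups did not overlap, and the log2 fold change was 1.73 ± 0.37 (SE, n = 3, edgeR adjusted p = 0.00113). Hk1, the hexokinase that most tissues express, was at 6.95, 9.03 and 3.71 CPM in LZtoDZ and at 10.7, 13.0 and 11.4 CPM in LZ cells. It fell by 0.90 ± 0.23 on the log2 scale (edgeR adjusted p = 0.00521), and the lowest value was that of mouse 3. Without mouse 3 the Hk1 change was -0.55 (edgeR adjusted p = 0.213), and among cells of 9942 to 34061 UMIs it was -0.71 (adjusted p = 0.191). That range narrowed the gap in depth without closing it, with medians of 19103 UMIs in LZtoDZ, 11962 in LZ and 12914 in DZ cells. These are rare transcripts, with 37 Hk2 and 24 Hk1 UMIs in the 165 LZtoDZ cells. As a share of the UMIs of Hk1, Hk2 and Hk3, Hk2 made up 61.6% ± 5.61 (SD, n = 3) in LZtoDZ cells, 19.9% ± 1.87 in LZ and 16.5% ± 3.53 in DZ cells.

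Gpi1, which converts glucose 6-phosphate to fructose 6-phosphate, stood at 314, 385 and 362 CPM in LZtoDZ cells and at 349.9, 354 and 372 CPM in LZ cells. The groups overlapped, and the log2 difference was -0.02 ± 0.12 (edgeR adjusted p = 0.915). Pfkp, the platelet-type phosphofructokinase that commits sugar to glycolysis, was at 91.5, 99.4 and 88.3 CPM against 57.9, 67.3 and 62.1 CPM, a log2 fold change of 0.57 ± 0.15 (edgeR adjusted p = 0.00470). All LZtoDZ values lay above all LZ values. Within that range of depth the Pfkp change was 0.40 (edgeR adjusted p = 0.0523). Its share of the phosphofructokinase UMIs (Pfkp, Pfkl and Pfkm) was 59.2% ± 1.59 in LZtoDZ and 61.0% ± 1.02 in LZ cells.

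Aldoa, which cleaves fructose 1,6-bisphosphate, was at 1035, 1026 and 973 CPM in LZtoDZ cells and at 671, 654 and 680.1 CPM in LZ cells, a log2 fold change of 0.59 ± 0.13 (edgeR adjusted p = 0.00141). Tpi1, which interconverts the resulting triose phosphates, was at 643, 683 and 614 CPM against 306, 336 and 356 CPM, a log2 fold change of 0.95 ± 0.20 (edgeR adjusted p = 0.00120). Neither gene's groups overlapped. In the part of the pathway that pays back ATP, Pgk1 was at 170.3, 187 and 165 CPM against 105, 104 and 101 CPM, a log2 fold change of 0.75 ± 0.10 (edgeR adjusted p = 2.31e-05). Eno1, which makes phosphoenolpyruvate, was at 243, 229.6 and 207 CPM against 132, 133 and 138 CPM, a log2 fold change of 0.75 ± 0.11 (edgeR adjusted p = 6.84e-05). LZtoDZ values were the higher in each mouse for both. Eno1 has a near-identical retrocopy, Eno1b, and reads that match both could not be assigned here; Eno1 held between 85.8% and 88.1% of the enolase UMIs in the 6 states. Pkm, whose isoforms the gene counts do not separate, was at 979.9, 1118 and 1034 CPM against 559, 589.8 and 568 CPM, a log2 fold change of 0.87 ± 0.16 (edgeR adjusted p = 0.000458).

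Ldha had the highest LZtoDZ level relative to LZ among the abundant members, at 1874, 1848 and 1752.5 CPM against 731.5, 765 and 776 CPM. The log2 fold change was 1.27 ± 0.22 (edgeR adjusted p = 0.000209), and the nearest values of the groups were 1752.5 and 776 CPM. Its partner subunit gene Ldhb was nearly absent, so Ldha made up 100% of the UMIs of both in LZtoDZ, LZ, DZ, prePC and PC and 99.8% in preMem cells. Myeloid markers were lower in LZtoDZ than in LZ cells for 2 of 2 tested, Apoe and Cst3 (median log2 fold change -2.28). Apoe had UMIs in 60.5% of LZ and 30.3% of LZtoDZ cells, and Cst3 in 69.5% and 73.3%. Ldha kept its call in fits without cells with RNA of other types, whether Apoe and Cst3 were counted for this or not. The source of these transcripts was not tested. LZtoDZ cells were more often in cycle than LZ cells, with 10.6% ± 2.63 (SD, n = 3) against 55.7% ± 4.11 in G1. Within matched phases (S and G2M), 8 members were higher and 0 lower, beside 1651 higher and 1753 lower of 9374 genes. Ldha was higher there by 1.17 (log2, edgeR adjusted p = 2.85e-10). LZtoDZ cells were also deeper, and within 9942 to 34061 UMIs, where they remained deeper, 7 members were higher in LZtoDZ, Ldha by 0.86 (adjusted p = 0.000310 by edgeR). Of all 8778 genes tested in that range, 1037 were higher and 1065 lower.

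**Figure D2:**
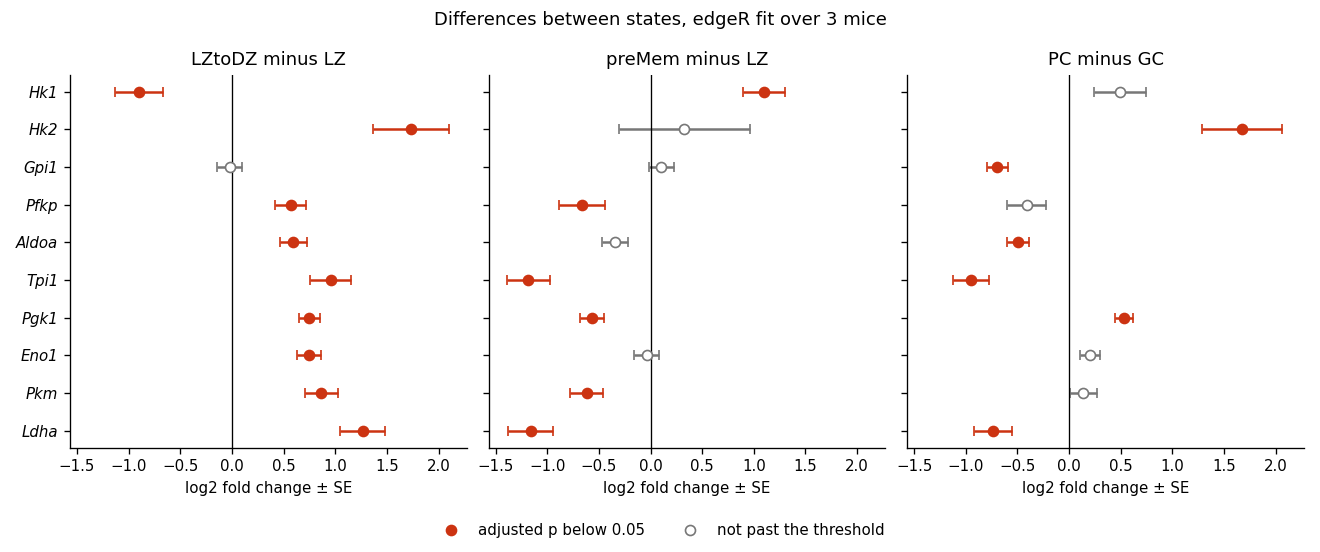
Log2 fold change with its standard error (x axis) of the 10 enzymes (rows) for LZtoDZ minus LZ, preMem minus LZ and PC minus GC, from the edgeR fit over 3 mice; filled points passed an adjusted p of 0.05. 8 of the LZtoDZ points lie right of 0, 5 preMem points that passed lie left of 0, and the PC points fall on both sides.

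Of the other glycolytic enzymes and isoforms, 8 of 21 were tested, and 4 were higher and 2 lower than in LZ cells. Pgam1, the phosphoglycerate mutase between Pgk1 and Eno1, stood at 658 ± 18.6 CPM (SD, n = 3) in LZtoDZ and 288 ± 23.3 CPM in LZ cells (log2 fold change 1.19 ± 0.18, edgeR adjusted p = 5.13e-05). Gapdh, the dehydrogenase between Tpi1 and Pgk1, was at 537 ± 7.47 against 357 ± 7.43 CPM (0.59 ± 0.16, edgeR adjusted p = 0.00562). The liver-type phosphofructokinase Pfkl rose by 0.62 ± 0.12 (edgeR adjusted p = 0.000517). In the pentose phosphate pathway 4 of 7 genes were higher and 1 lower, and the transketolase Tkt rose by 0.84 ± 0.15 (adjusted p = 0.000292 by edgeR). Citric acid cycle genes were higher for 12 of 18 and lower for 0, among them Idh3a (1.03 ± 0.09, edgeR adjusted p = 4.02e-07). Txnip, which restrains glucose uptake, was at 21.3 ± 5.44 CPM against 71.7 ± 5.79 CPM and fell by 1.70 ± 0.21 (edgeR adjusted p = 9.19e-06). Of 12 hypoxia response genes outside glycolysis, 1 was higher and 5 lower. Myc stood at 184, 115 and 75.3 CPM in LZtoDZ and 55.9, 37.6 and 49.6 CPM in LZ cells, and Mxd4, a Max partner that opposes Myc, fell by 3.36 ± 0.27 (edgeR adjusted p = 1.58e-07).

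Per cell the difference between LZtoDZ and other GC cells was larger than in CPM, since LZtoDZ cells held more UMIs. The 10 genes together gave 123 ± 13.2 UMIs per LZtoDZ cell (mean over mice ± SD, n = 3), 24.1 ± 1.69 per LZ cell, 29.7 ± 2.02 per DZ cell and 9.82 ± 0.647 per preMem cell. The means were 41.6 ± 5.46 per PC and 33.7 ± 14.4 per prePC. The median cell held 19 in PC, 17 in prePC, 20 in LZ and 22 in DZ. With every cell thinned to 2000 UMIs, which dropped 9 shallower preMem, 20 LZ and 14 DZ cells, the median was 12 member UMIs in LZtoDZ cells, 6 in DZ and LZ, 4 in preMem and prePC and 2 in PC. Thinned counts are relative to a cell's total UMIs, as library totals are, so the low TMM factors of PC do not enter them. The lowest 10% of LZtoDZ cells had up to 7 and the highest 10% had 17 or more, against 3 and 11 in LZ cells. The LZtoDZ distribution was thus shifted as a whole and overlapped that of LZ cells in part.

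**Figure D3:**
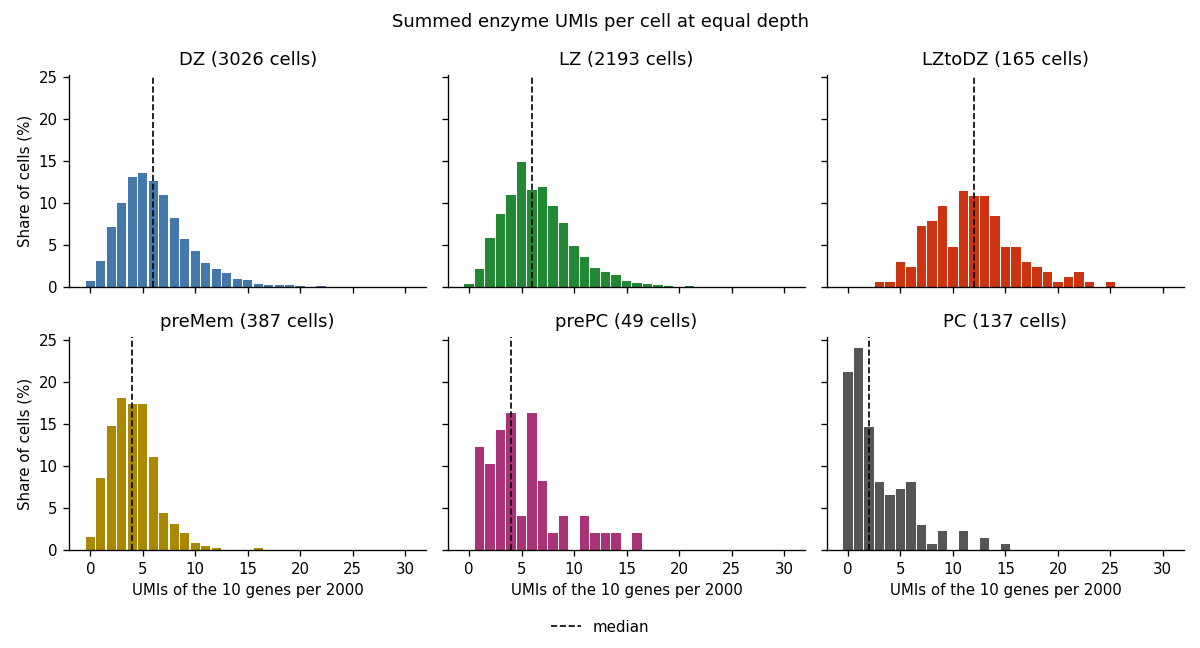
Share of cells in percent (y axis) by the summed UMIs of the 10 enzymes after thinning each cell to 2000 UMIs (x axis), by state, with the median as a dashed line. The median is 12 in LZtoDZ cells, 6 in DZ and LZ cells and 2 in PC, where the lowest bars hold the most cells. Counts are relative to each cell's total UMIs and are not TMM-scaled.

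Against DZ cells, the zone that LZtoDZ cells enter, 8 members were higher in LZtoDZ cells and 0 lower, beside 21.8% higher, 23.3% lower and 45.1% in either direction over all genes. Hk2 was at 1.47, 2.40 and 2.09 CPM in DZ cells, below every LZtoDZ mouse (log2 fold change 2.24 ± 0.36, edgeR adjusted p = 0.000123). Ldha stood at 627, 682 and 617 CPM in DZ cells, and LZtoDZ cells were higher by 1.51 ± 0.22 (edgeR adjusted p = 4.30e-05). The other members that passed were Tpi1 (0.89), Aldoa and Pkm (0.78 each), Pfkp and Eno1 (0.70 each) and Pgk1 (0.47). Hk1 differed by -0.65 ± 0.23 (edgeR adjusted p = 0.0541), and Gpi1 had 349 ± 2.49 CPM in DZ cells beside 354 ± 36.5 CPM in LZtoDZ cells. Pgk1 missed the threshold among cells of 9942 to 34061 UMIs (0.15, edgeR adjusted p = 0.232). This comparison shares its LZtoDZ sums with the one against LZ cells.

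Between the zones themselves, 0 members were higher and 0 lower in DZ than in LZ cells by edgeR, while 8.17% of all genes were higher and 11.3% lower (19.4% in either direction). At an unadjusted p under 0.05 by edgeR there was 1 member, beside 2600 of 8473 genes. DESeq2 called 1 member higher and 1 lower, beside 697 and 861 of 8473 genes. Pgk1 came closest, at 122, 126 and 127 CPM in DZ and 105, 104 and 101 CPM in LZ cells. The mice of the zones did not overlap, and the log2 difference was 0.28 ± 0.10 (edgeR adjusted p = 0.0574); with phases matched it was 0.25 (adjusted p = 0.000498). Ldha was at 642 ± 35.1 CPM in DZ and 757 ± 23.0 CPM in LZ cells (-0.24 with phases matched, edgeR adjusted p = 0.0124). Aldoa was at 589 ± 18.7 and 669 ± 13.1 CPM, and Pkm at 609 ± 15.8 and 572 ± 15.9 CPM. Fewer DZ than LZ cells were in G1 (35.5% ± 1.77 against 55.7% ± 4.11).

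In preMem cells, which leave the germinal center reaction as future memory cells, 5 members were lower than in LZ cells and 1 was higher, beside 14.7% lower, 16.7% higher and 31.3% in either direction over all genes. The members' median log2 fold change was -0.45, and that of all genes was 0.03. Tpi1 stood at 147.4, 147.5 and 145 CPM in preMem cells of the 3 mice, less than in any LZ sum (log2 fold change -1.18 ± 0.21, edgeR adjusted p = 0.000500). Ldha was at 406, 345.5 and 273 CPM, also below each LZ value (-1.16 ± 0.22, edgeR adjusted p = 0.000838). Hk1 went the other way: its 19.2, 28.7 and 26.8 CPM lay above the LZ values and the log2 fold change was 1.10 ± 0.20 (edgeR adjusted p = 0.000719).

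Pkm was at 393.2, 393.3 and 335 CPM in preMem cells (-0.62 ± 0.16, edgeR adjusted p = 0.00914), Pgk1 at 70.5, 65.5 and 73.3 CPM (-0.57 ± 0.12, edgeR adjusted p = 0.00200) and Pfkp at 40.6, 45.1 and 33.8 CPM (-0.66 ± 0.22, adjusted p = 0.0342). All of these lay below the LZ mice. Aldoa, at 524, 575 and 489 CPM, differed by -0.34 ± 0.13 (edgeR adjusted p = 0.0551), and with G1 cells only by -0.51 (adjusted p = 0.000193). Eno1, at 135, 128 and 131 CPM, and Gpi1, at 353, 429 and 378 CPM, overlapped the LZ values, and Hk2 rested on 7 UMIs. Without mouse 2 only 3 members were lower, since Pkm (-0.63, edgeR adjusted p = 0.0912) and Pgk1 (-0.51, adjusted p = 0.0537) missed the threshold. Pfkp missed it without mouse 1 (-0.71, edgeR adjusted p = 0.0919), without mouse 3 (-0.54, adjusted p = 0.157) and in 2 further alternatives. Most preMem cells were in G1 (93.5% ± 1.97), and within G1 Ldha was lower by 0.97 and Tpi1 by 0.86 on the log2 scale (edgeR adjusted p = 2.87e-06 and 1.20e-05), while Pgk1 differed by -0.33 (adjusted p = 0.0646).

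Around the members, Gapdh stood at 221 ± 12.3 CPM in preMem cells (log2 fold change -0.69 ± 0.16 against LZ, edgeR adjusted p = 0.00349), and Pgam1 at 171 ± 5.37 CPM (-0.76 ± 0.18, adjusted p = 0.00433). Tkt and Pgd of the pentose phosphate pathway fell by 0.86 ± 0.15 and 0.80 ± 0.11 (edgeR adjusted p = 0.000500 and 7.38e-05). Txnip rose to 249 ± 12.9 CPM (1.79 ± 0.16, edgeR adjusted p = 5.74e-07) and Ddit4, an inhibitor of mTORC1 signalling, rose by 1.74 ± 0.16 (adjusted p = 1.06e-06 by edgeR). In the citric acid cycle 5 of 18 genes were lower and 0 higher. This comparison shares its LZ sums with that of LZtoDZ cells.

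In prePC, 1 member was higher and 2 lower than in GC cells (the mean of DZ, LZ and LZtoDZ), beside 10.5% higher, 7.48% lower and 18% in either direction over all genes. Ldha was at 566, 806 and 319 CPM and Tpi1 at 239, 359 and 126 CPM, with mouse 2 within the range of DZ and LZ cells or above it and mouse 3 far below. Their log2 fold changes were -0.78 ± 0.19 for both (edgeR adjusted p = 0.00789 and 0.00758). Without mouse 1 neither passed (edgeR adjusted p = 0.0831 and 0.106). The GC mean holds the high LZtoDZ values of both genes. Set beside DZ cells alone, Ldha and Tpi1 in prePC did not pass (edgeR adjusted p = 0.623 and 0.131). The same held beside LZ cells alone (edgeR adjusted p = 0.235 and 0.228). Hk1, at 18.7, 25.7 and 22.8 CPM from 13 UMIs, was higher by 1.27 ± 0.36 (edgeR adjusted p = 0.0381), a call that leaving out any 1 mouse ended (adjusted p from 0.104 to 0.238). Pfkp had 0 UMIs in the 10 prePC of mouse 3 and 77.0 CPM in mouse 2. Of the 49 prePC, 40 lay in the authors' cluster of mostly preMem cells, with a median of 2014 CPM of summed members per cell, and the other 9 had a median of 3192 CPM; these values per cell are not TMM-scaled.

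In PC, members were called in both directions against GC cells under TMM scaling, at shares near those of all genes. Hk2 and Pgk1 were higher, Tpi1, Ldha, Gpi1 and Aldoa were lower, and 4 members did not pass, so 2 were higher and 4 lower beside 25.9% and 27.2% of all genes (53.1% in either direction). Gpi1 was at 220.2, 233 and 202 CPM in PC, below each mouse of each other state (log2 fold change -0.70 ± 0.10, edgeR adjusted p = 3.39e-05). Tpi1, at 213, 208 and 233 CPM, was lower by 0.95 ± 0.18 (edgeR adjusted p = 0.000306) and Ldha, at 548, 511 and 657 CPM, by 0.74 ± 0.18 (adjusted p = 0.00318). The reference holds the high LZtoDZ values. Set beside DZ cells alone, Ldha in PC did not differ beyond its spread (adjusted p = 0.578 by edgeR). Aldoa, at 557, 536 and 476 CPM, was lower by 0.50 ± 0.11 (edgeR adjusted p = 0.00116). Aldoa in PC did not pass against DZ cells alone (edgeR adjusted p = 0.268). It was lower than in LZ cells alone by 0.36 (edgeR adjusted p = 0.0280).

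Pgk1 stood at 204, 174 and 191 CPM in PC, above every DZ and LZ value (0.53 ± 0.09 against GC, edgeR adjusted p = 9.48e-05). Hk2 was at 10.1, 7.74 and 22.0 CPM from 25 UMIs (1.67 ± 0.39, edgeR adjusted p = 0.00176), and without mouse 3, the highest, it was 1.08 (adjusted p = 0.0738). Its share of the hexokinase UMIs was 49.4% ± 17.6 in PC. Pkm was at 777, 797 and 779 CPM, and Eno1 at 216, 155 and 191 CPM. Under TMM scaling, Eno1 in PC was higher by 0.42 than in DZ cells alone (edgeR adjusted p = 0.00642). It was higher by 0.47 than in LZ cells alone (edgeR adjusted p = 0.00329). Pkm in PC was higher by 0.45 than in LZ cells alone (edgeR adjusted p = 0.0276). It did not pass against DZ cells alone (edgeR adjusted p = 0.06999). Against the GC mean, which holds the high LZtoDZ values, neither Pkm nor Eno1 passed. The scaling changed these results: with library totals in place of TMM the median of all genes fell from -0.09 to -1.002, 0 members were higher and 8 were lower, and 991 of all genes were higher and 5952 lower in place of 2192 and 2305, and Pgk1 was lower by 0.37 (edgeR adjusted p = 0.00701). Relative to those medians Pgk1 and Hk2 stood above and Ldha, Tpi1, Gpi1 and Aldoa below in either scaling. Without the second barcode series 1 sum of 11 PC was left, and 0 members were called (edgeR), Ldha at -0.55 and Tpi1 at -0.52.

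Against LZtoDZ cells, the other state with deep cells, 6 members were lower in PC and 1 higher, beside 26.2% and 23.9% of all genes (50.1% in either direction). The lower members were Ldha (-1.66 ± 0.22, edgeR adjusted p = 1.26e-05), Tpi1 (-1.56 ± 0.21), Aldoa (-0.95 ± 0.13), Pfkp (-0.83 ± 0.21), Gpi1 (-0.69 ± 0.12) and Pkm (-0.41 ± 0.16, adjusted p = 0.0465). Hk1 was higher by 1.01 ± 0.32 (edgeR adjusted p = 0.0292), which did not pass without mouse 2 or mouse 3 or within 9942 to 34061 UMIs (0.85, adjusted p = 0.171). Pkm did not pass without mouse 1 (-0.45, edgeR adjusted p = 0.107) or mouse 2 (-0.45, adjusted p = 0.158). Within that range of depth, with medians of 23123 UMIs in PC and 19103 in LZtoDZ, Ldha was lower by 1.95 and Tpi1 by 1.75 on the log2 scale (edgeR adjusted p = 1.14e-07 and 1.27e-06).

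Single genes on the route of glucose carbon changed in PC. Bsg, the chaperone of lactate transporters, rose to 599 ± 60.2 CPM (log2 fold change 2.32 ± 0.10 against GC, edgeR adjusted p = 7.15e-12). Mpc2 and Mpc1, the subunits of the mitochondrial pyruvate carrier, rose by 2.26 ± 0.09 and 0.92 ± 0.11 (edgeR adjusted p = 2.29e-12 and 3.12e-06). Bpgm, which makes 2,3-bisphosphoglycerate, rose by 1.41 ± 0.14 (edgeR adjusted p = 4.26e-07), and the muscle-type mutase Pgam2 was at 65.7 ± 44.0 CPM in PC and near 0 in GC cells. Pgam1 fell by 0.52 ± 0.15 (adjusted p = 0.00754 by edgeR). Of the list of pyruvate entry, 4 of 9 tested genes were higher and 2 lower, and of the citric acid cycle 7 of 18 were higher and 2 lower, where 25.9% and 27.2% of all genes were. Hif1a, the oxygen-regulated subunit of HIF-1, fell by 2.10 ± 0.22 (edgeR adjusted p = 6.07e-07).

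Across the cell cycle of DZ and LZ cells, phases being the authors' calls, some members passed the test for S phase averaged over both zones. In S phase 4 members were higher than in G1 and 0 lower, beside 21.3% higher, 19.3% lower and 40.7% in either direction over all genes. Tpi1 was at 469, 468 and 419 CPM in DZ cells in S and at 278, 294 and 254 CPM in G1, and LZ cells gave 393, 430.1 and 449 against 246, 254 and 290.1 CPM. The phases did not overlap in either zone, and the log2 fold change was 0.70 ± 0.08 (edgeR adjusted p = 1.55e-07). Ldha was at 853, 887 and 806 CPM in DZ cells in S and 509, 549 and 525 CPM in G1, and at 943, 943.3 and 924 against 601, 677 and 708 CPM in LZ cells (0.59 ± 0.09, edgeR adjusted p = 4.95e-06). Pkm rose by 0.51 ± 0.06 and Pgk1 by 0.46 ± 0.06 (edgeR adjusted p = 9.96e-08 and 8.96e-07). Gpi1 was at 403 in S and 359.5 CPM in G1 of DZ cells and at 371 and 384 CPM in LZ cells, and Eno1 at 155 and 149 CPM in DZ and 148 and 140.3 CPM in LZ cells, all means of 3 mice. In DZ cells Gpi1 and Pfkp in S lay above G1 without overlap. Over both zones Pfkp differed by 0.21 ± 0.09 (edgeR adjusted p = 0.0619) and Aldoa by 0.095 ± 0.064 (adjusted p = 0.249). Aldoa was at 693, 767 and 746 CPM in S of DZ cells against 631, 591 and 585 CPM in G1. In LZ cells it was at 694, 709 and 706 against 748, 752 and 756 CPM.

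In G2M 4 members were higher than in G1 and 2 lower, beside 19.3% higher, 20.2% lower and 39.5% in either direction over all genes. Pkm (0.45 ± 0.06), Tpi1 (0.43 ± 0.08) and Pgk1 (0.34 ± 0.06) were higher with edgeR adjusted p of 6.13e-07, 0.000152 and 0.000102. Ldha was higher by 0.22 ± 0.09 (edgeR adjusted p = 0.0449), and leaving out any 1 mouse ended that call (adjusted p from 0.0954 to 0.144). Aldoa was lower by 0.35 ± 0.06 (edgeR adjusted p = 0.000103), at 521, 582 and 535 CPM in DZ cells in G2M against 631, 591 and 585 CPM in G1, and at 509, 481 and 549 against 748, 752 and 756 CPM in LZ cells. Its G2M values lay below its G1 values in each zone, with the gap to the nearest G1 value small in DZ cells. Pfkp was lower by 0.27 ± 0.11 (edgeR adjusted p = 0.0473), which did not pass without mouse 2 or mouse 3. Whether a phase effect differed between the zones was tested directly: 0 members were called for S (0.0107% of all genes, in the lower direction) and 0 for G2M (0.064% of all genes higher, 0.064% lower and 0.128% in either direction). By edgeR 1 member, Aldoa, had an unadjusted p under 0.05 in each (0.38 for S and 0.41 for G2M, DZ minus LZ). Of all 9374 genes, 515 did for S and 927 for G2M. DESeq2 called 1 member in each, beside 67 genes higher and 14 lower for S and 162 and 64 for G2M.

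**Figure D4:**
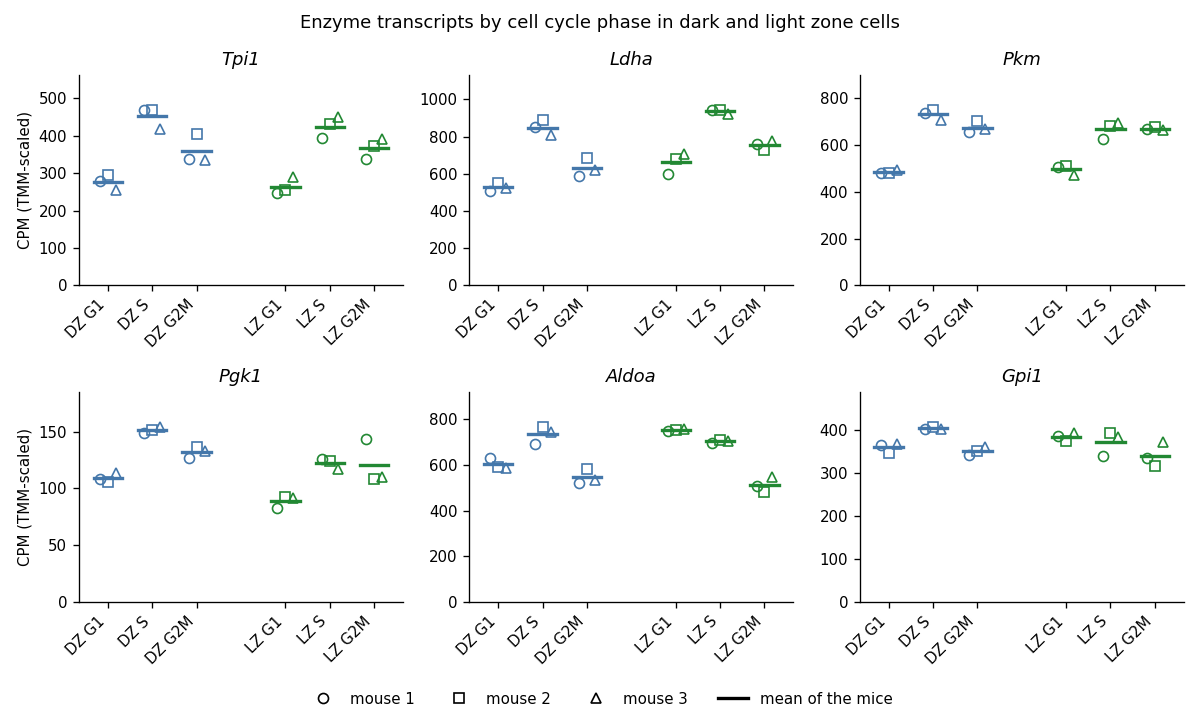
Level in CPM with TMM scaling (y axis, from 0) of 6 enzymes in G1, S and G2M (x axis) of DZ and LZ cells, 1 point per mouse and a line at the mean. Tpi1, Ldha, Pkm and Pgk1 are higher in S than in G1 in both zones, Gpi1 stays between 315 and 407 CPM, and Aldoa in LZ cells is lowest in G2M.

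Within PC, transcripts of 5 enzymes, Eno1, Ldha, Tpi1, Pkm and Pgk1, were lower in G1 than in S or G2M, and the other members did not pass. This comparison was chosen after the values were seen, with S and G2M pooled so that 16, 17 and 13 cycling PC of the 3 mice could be set against 30, 41 and 20 PC in G1. The summed members were at 3193, 3417 and 3059 CPM in cycling PC and at 2042, 1661 and 1919 CPM in G1 PC, without overlap. Of the 10 members 5 were higher in cycling PC and 0 lower, beside 9.54% higher, 9.85% lower and 19.4% in either direction over all genes. Eno1 stood at 259.9, 245 and 259 CPM in cycling PC and at 135.5, 46.1 and 54.0 CPM in G1 PC (log2 fold change 1.71 ± 0.21, edgeR adjusted p = 2.06e-06). Ldha was at 678.5, 719 and 823 CPM against 319, 246 and 287 CPM (1.38 ± 0.15, edgeR adjusted p = 5.38e-07), and Tpi1 at 241, 285 and 290.5 against 155, 107.5 and 104 CPM (1.15 ± 0.15, adjusted p = 4.06e-06). Pkm and Pgk1 rose by 0.70 ± 0.10 and 0.69 ± 0.11 (edgeR adjusted p = 2.76e-05 and 9.24e-05), and Gpi1 differed by 0.39 ± 0.15 (adjusted p = 0.0792). Aldoa was at 594, 614 and 393 CPM in cycling PC and 452, 409.5 and 503 CPM in G1 PC, so that mouse 3 went the other way from mice 1 and 2, and Hk1, Hk2 and Pfkp overlapped as well.

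Set beside the same contrast in LZ cells, the difference in PC was larger for 2 members and smaller for 0, beside 2.6% and 3.99% of all genes (6.58% in either direction). They were Eno1, by 1.72 ± 0.25, and Ldha, by 0.96 ± 0.21 (edgeR adjusted p = 0.000205 and 0.00574). LZ cells had Eno1 at 131, 134 and 138 CPM in G1 and 130.0, 132 and 138 CPM in S or G2M, so the groups overlapped there. The Ldha difference missed the threshold without mouse 2 (0.90, edgeR adjusted p = 0.111) or without mouse 3 (0.83, adjusted p = 0.111). In G1 alone, PC were below LZ cells for 5 members and above for 2, beside 22.4% and 21.6% of all genes (44% in either direction); Ldha fell by 1.16, Tpi1 and Gpi1 by 1.05 each, Eno1 by 0.80 and Aldoa by 0.67, and Hk2 and Pgk1 were higher by 1.72 and 0.64. With library totals 0 members were higher and 9 lower there, beside 879 and 6490 of 9633 genes. The median of all genes was then -1.40, and Pgk1 was at -0.59. Hk2 missed the threshold without mouse 1 (1.53, edgeR adjusted p = 0.141) or mouse 3 (1.38, adjusted p = 0.140), and Eno1 without mouse 2 (-0.48, adjusted p = 0.133) or mouse 3 (-0.59, adjusted p = 0.0917). With library totals the median of all genes in the cycling contrast of PC was 0.69, and 8 members were higher, beside 3228 of 9633 genes higher and 214 lower. Median depth was 20307 to 23300 UMIs per cell in G1 PC of the 3 mice and 29256 to 32646.5 in S, and in cycling PC 5 of 7 PC markers were lower, 3 of 7 DZ markers higher (median log2 fold change 2.19), 2 of 7 preMem markers higher and 2 of 4 tested myeloid markers lower. Doublets were not called, and the part of depth or of these markers in the result was not tested. After thinning to 2000 UMIs, which like library totals leaves out TMM scaling, the median was 1 member UMI in G1 PC, 6 in PC in S and 3 in PC in G2M.

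**Figure D5:**
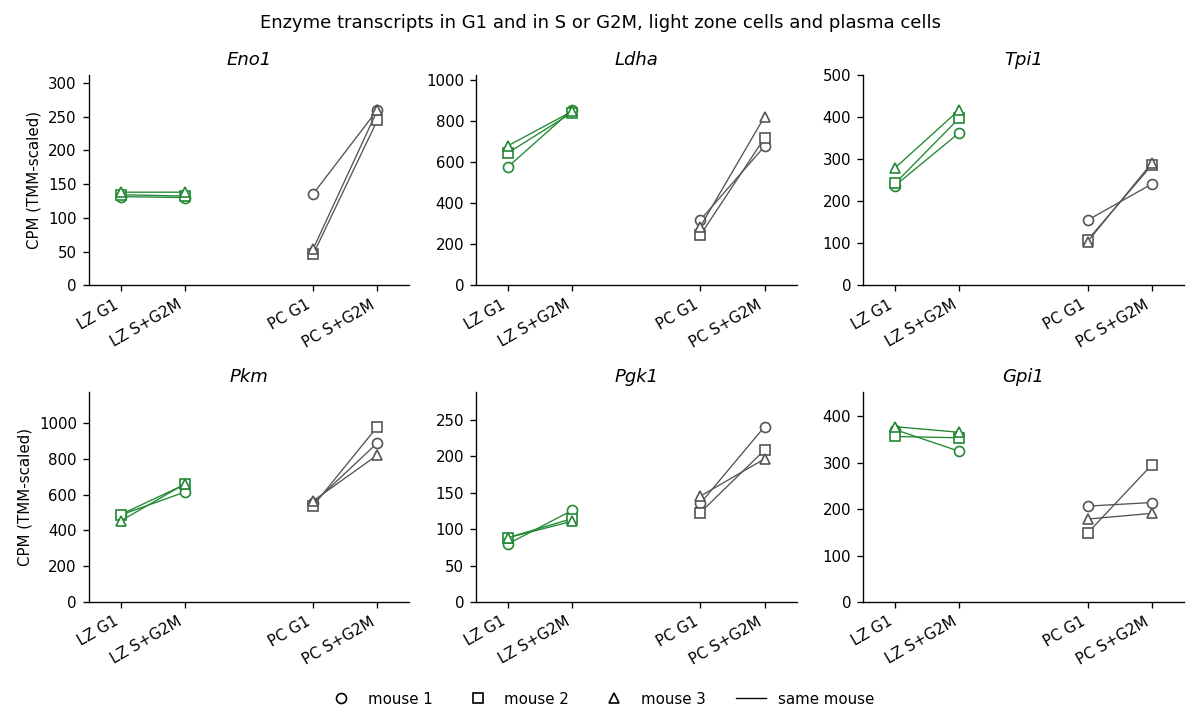
Level in CPM with TMM scaling (y axis, from 0) of 6 enzymes in G1 and in S or G2M (x axis) of LZ cells and PC, with a line joining the values of a mouse. Eno1 is level in LZ cells (130 to 138 CPM) and at 245 CPM or more in each mouse's cycling PC against at most 135.5 CPM in G1 PC.

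Over the 18 sums of mouse and state, the members did not all vary together. The correlation of a member's log2 CPM with the mean of the others, given as a description since the sums share mice and states, was 0.87 for Pkm, 0.84 for Ldha, 0.77 for Tpi1 and Eno1, 0.72 for Aldoa and 0.68 for Pgk1. It was 0.42 for Pfkp, 0.20 for Hk2, -0.15 for Gpi1 and -0.68 for Hk1. Tpi1 and Ldha formed the closest pair (r = 0.96). Outside the members, among 3618 genes with a mean of at least 50 CPM, the 5 whose level was most like the members' mean were Adh5 (r = 0.96), the mitochondrial chaperones Hspa9 (0.96) and Hspd1 (0.95), Pdcd5 (0.95) and the initiation factor subunit Eif3b (0.94).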

How the data were processed

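The labels list 12 libraries in 6 groups, and the deposited matrix pools 6000 cells of 3 mice. The authors deposited UMI counts that were not normalised, and the submitters' processing notes name Cell Ranger, Seurat and the builds mm10 and GRCm38, without versions. The deposited cell table holds the authors' signature scores per cell and other annotations (state, phase, cluster and mouse), whose making is not given in the sources used here. Reads shared by near-identical genes may have been counted in ways that are not given either. No cell was filtered out, and doublets were not called.

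Counts were summed per mouse and state (18 sums), per mouse, state and phase (34 sums) or with S and G2M pooled (27 sums), keeping sums of at least 10 cells. edgeR 4.0.16 in R 4.3.3 (TMM, filterByExpr, quasi-likelihood test) was fitted with the mouse as a block, and p-values were adjusted by Benjamini-Hochberg over all 8473, 9374 or 9633 genes, with a threshold of 0.05. The pairing by mouse comes from the hashtag. Over 2706 genes the deviations of sums of the same mouse had a median correlation of 0.09 (45 pairs), and those of different mice -0.05 (90 pairs). Deviations were taken from each state's mean over the 3 mice, so the second value largely follows from the first and is no separate evidence. CPM are scaled by TMM, and GC is the mean of DZ, LZ and LZtoDZ. DESeq2 1.42.0 and other alternatives are given in the closing section. All 10 members were named in each comparison; of each other list, up to 3 called genes with the largest change, a level of 50 CPM or more on the higher side and 1 direction in 3 mice. The members and lists were chosen with earlier results of these data known.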

Additional observations from a re-analysis of the deposited data

Results flagged for a closer look

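For 2 members the difference between cycling and G1 cells itself differed between PC and LZ cells, by a test of that difference. For Eno1 it was larger in PC by 1.72 on the log2 scale (SE 0.25, edgeR adjusted p = 0.000205), and it was larger in PC in each fit that left out a mouse (1.44 to 2.36). For Ldha it was larger in PC by 0.96 (SE 0.21, edgeR adjusted p = 0.00574), and it missed the threshold without mouse 2 (0.90) or without mouse 3 (0.83). Cycling PC numbered 16, 17 and 13 in the 3 mice, and the comparison was chosen after the values were seen.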

How the results depend on the processing

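Over 82 results for single members, 1005 alternative values were computed, of which 892 kept their direction and side of the threshold, 62 lost a call, 35 gained one and 16 changed sign. Comparing DZ with LZ cells, 1 member was higher with DESeq2, a minimum of 20 cells, or without immunoglobulin genes, the second barcode series, cells with RNA of other types or the deepest 5% of cells, and with phases matched; 1 was lower with DESeq2 or phases matched and 2 without immunoglobulin genes. For LZtoDZ against LZ, 0 were lower without replicate 3, without other-type cells by all list genes, in the common range of depth or with phases matched; against DZ, 1 was lower without other-type cells or with library totals. Leaving out a mouse gave 3 to 4 lower members for preMem. For prePC, 0 were higher without the low-count filter, without any 1 mouse, with 20 cells, without other-type cells or the deepest 5%, and with library totals, and 0 were lower without replicate 1 or with 20 cells.

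For PC against GC, 4 were higher with DESeq2, 1 without replicate 3, and 0 without the second series or with library totals, while 0 and 8 were lower under the last 2. Over all genes library totals gave 991 higher and 5952 lower and DESeq2 gave 2357 and 2191, against 2192 and 2305. Against LZtoDZ, 0 were higher without the filter, replicate 2, replicate 3, the second series or the deepest 5%, with library totals or in the common range of depth, and library totals gave 1002 higher and 5165 lower genes against 2024 and 2220. In G2M 4 were lower with DESeq2 (2056 of all 9374 genes lower), and 1 without the replicate block, without replicate 2 or 3, or with 20 cells. In the block comparison no other member count moved by over 1.5 times. DESeq2 called 1 member for each zone-by-phase difference (of all genes 67 higher and 14 lower for S, 162 and 64 for G2M). With library totals 8 were higher in cycling PC (3228 of all genes higher and 214 lower). Library totals gave 0 higher and 9 lower in G1 PC against G1 LZ (879 and 6490 of all genes). In the cycling difference they gave 8 higher (2523 of all genes higher and 83 lower), where DESeq2 gave 6 (338 and 491 of all genes). Leaving out replicate 2 or 3 gave 1 (82 and 114 of all genes, and 111 and 167). Without replicate 1 or 3, 1 was higher in G1 PC against G1 LZ.

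Sign changes were as follows. Gpi1 in LZtoDZ against LZ was 0.0355 with DESeq2, 0.0253 with its size factors, 0.0359 without the second series, 0.0928 with phases matched and -0.0142 to 0.0407 with a mouse left out. Hk1 in LZtoDZ against DZ was 0.0573 without other-type cells by all list genes, and in PC against GC -0.42 with library totals. Hk2 in preMem against LZ was -0.22 with phases matched and -0.0627 to 0.54 with a mouse left out. In PC against LZtoDZ Hk2 was -0.52 with library totals and -0.48 to 0.71 with a mouse left out, and in cycling against G1 PC -0.0399 to 0.70. Pfkp in prePC was 0.0731 with 20 cells. Pgk1 with library totals was -0.37 in PC against GC and -0.59 in G1 PC against G1 LZ. The causes were not tested. Library totals, the range of depth and the cycling PC comparison were added after seeing the data; phase matching for prePC and PC, and the other-type filter by all list genes for them, were not run, as too few cells remained. Hk1 and Hk2 rest on few UMIs.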
